A study of Arabidopsis thaliana with 14 samples.

Results

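The circRNAs described here are those that the deposited list of *Arabidopsis thaliana* places on chromosomes 1 to 5 and labels as intergenic. There were 234 of them among 5861 circRNAs in all, and among 4859 on the nuclear chromosomes, of which 4418 were labelled exonic and 207 intronic. From wild-type Columbia (Col-0) plants, strand-specific libraries of RNA freed of rRNA and digested with RNase R were made for 14 samples, 1 library for each condition. Growth stages 1.14, 3.90, 6.50 and 8.00 of whole plants gave 4 of the 13 separate samples. Of the others, roots, stems, leaves, flowers and siliques were from plants at stage 6.50. The rest were plants under drought (mannitol), salt (NaCl) or heat beside plants without stress. For this stress series the paper's sample list names the aerial part, while its methods name whole plants. The stressed plants and those without stress were at stage 3.90, and the methods give 3 plants pooled in each of these samples. The other sample mixed RNA of whole plants from 7 stages of the lifespan. The list gives 1 whole number of junction reads for each circRNA, headed as a mean, and no value for each sample, so no level in an organ, stage or stress is given here and no difference between conditions was tested. Of the 234 intergenic circRNAs, 45 were also in the table of the mixed sample, with the same number of reads there, and 189 came from the separate samples.

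A circRNA forms when the 3′ end of an exon (the splice donor, followed by GT in the DNA) is joined to the 5′ end of an exon that lies upstream of it (the splice acceptor, preceded by AG) in place of the next exon. The reads that cross this back-spliced junction are the only sign by which it is recognized in short-read data. A junction read is therefore informative as far as its sequence occurs nowhere as ordinary linear sequence. Plant genomes hold many gene families whose members lie next to each other as tandem copies, and the exons of such copies can be nearly identical.

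The junctions of the 10 circRNAs with the most reads are printed, in the order of their reads, because the largest numbers of reads rest on them. In 7 of the 10 the ends lay in tandem copies, and the lines with AT3G27185, AT2G11270 and AT1G06577 are the other 3. Each line holds the last 30 bases of the circle in lower case and its first 30 bases in capitals, on the listed strand, read from the reference TAIR10.1. The lines with RBCS join genes of the small subunit of Rubisco (RBCS), the enzyme that fixes carbon dioxide.
Ath_circ_FC3604 (RBCS3B to RBCS2B): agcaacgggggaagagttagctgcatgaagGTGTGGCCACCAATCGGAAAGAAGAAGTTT
Ath_circ_FC3603 (RBCS3B to RBCS2B): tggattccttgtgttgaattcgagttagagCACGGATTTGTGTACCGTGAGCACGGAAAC
Ath_circ_FC3605 (RBCS3B to RBCS1B): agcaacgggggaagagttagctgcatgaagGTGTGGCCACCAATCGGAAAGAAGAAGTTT
Ath_circ_FC3912 (TUB3 to TUB2): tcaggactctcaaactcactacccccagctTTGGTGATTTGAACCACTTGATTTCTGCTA
Ath_circ_FC2192 (AT3G27185 to AT3G05195): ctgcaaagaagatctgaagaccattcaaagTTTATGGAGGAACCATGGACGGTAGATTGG
Ath_circ_FC1187 (no gene to AT2G11270): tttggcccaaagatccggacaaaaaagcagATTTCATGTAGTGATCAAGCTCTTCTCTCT
Ath_circ_FC1093 (Hsp70-15 to HSP91): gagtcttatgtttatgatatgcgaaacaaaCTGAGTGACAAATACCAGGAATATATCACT
Ath_circ_FC0604 (AT1G32575 to the gene opposite, AT1G06577): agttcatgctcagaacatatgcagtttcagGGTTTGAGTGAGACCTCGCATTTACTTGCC
Ath_circ_FC3325 (KIN2 to KIN1): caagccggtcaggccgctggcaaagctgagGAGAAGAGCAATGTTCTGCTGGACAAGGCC
Ath_circ_FC0773 (RPT1A to AT1G53780): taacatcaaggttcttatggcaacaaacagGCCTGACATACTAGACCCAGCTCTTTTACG

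The 234 intergenic circRNAs held 9841 junction reads, which was 21.4% of the 45887 reads of all nuclear circRNAs, while they made up 4.82% of those circRNAs. The 3 RBCS circRNAs held 6524 of these reads, or 66.3%. Without them, the other 231 held 3317 reads, 8.43% of the remaining nuclear reads. The median was 6 reads with and without the 3, against 5 for exonic and 6 for intronic circRNAs. The highest value was 2755 reads, or 195 without the 3, against 413 for exonic and 75 for intronic circRNAs. There were 43 intergenic circRNAs (18.4%) at the minimum of 2 reads that the list allows, against 1051 exonic ones (23.8%). Most of these reads thus came from 1 locus, but without it the read share of 8.43% still exceeded the 4.82% share of circRNAs. By the median, an intergenic circRNA had about as many reads as an exonic one.

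In the mixed sample, the only library with its own counts, the 45 intergenic circRNAs had 457 of 8987 back-spliced reads, or 5.09% (Wilson 95% interval 4.65% to 5.56%, counting error only). Of the 6619 nuclear reads of that library this was 6.90% (6.32% to 7.54%). None of the 3 RBCS circRNAs was in the table of that sample. The highest value there was 62 reads and the median 5 reads. The 189 intergenic circRNAs of the separate samples had 9384 reads, of which 2860 remained without the RBCS circRNAs. The libraries of the mixed and the separate samples were sequenced apart on different platforms, so platform and plant material cannot be told apart.

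**Figure D1:**
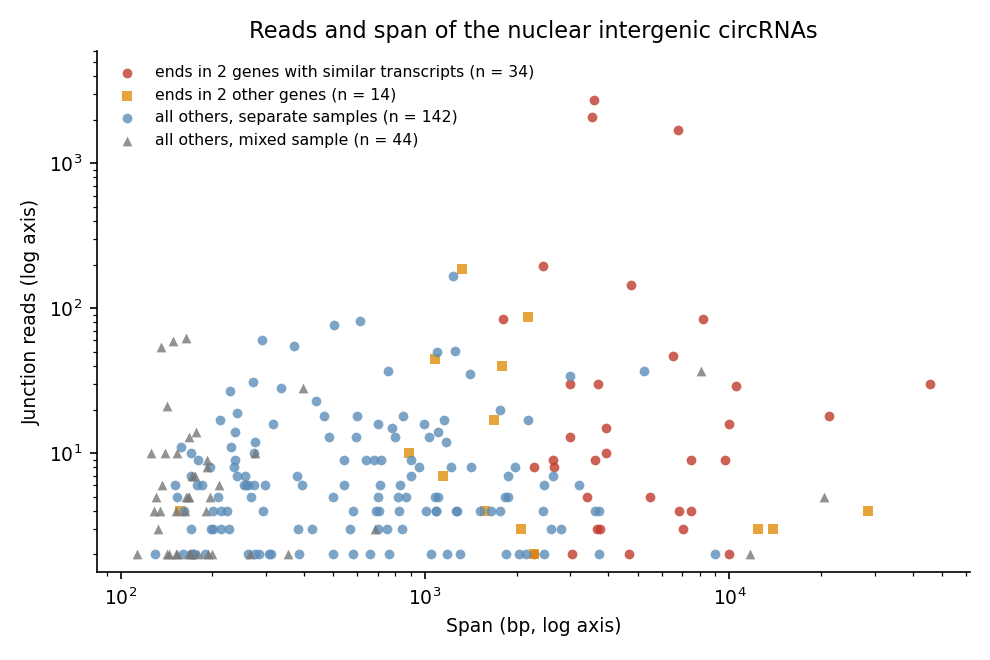
Junction reads against the span on the genome for the 234 nuclear intergenic circRNAs, both on log axes, 1 point for each circRNA, coloured by the genes at the ends and by the samples. The 3 RBCS circRNAs stand at 1689 to 2755 reads, above all other points, and circRNAs of the mixed sample lie mostly at short spans (median 168 bp).

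The span, the distance on the genome between the ends, was 688.5 bp at the median of the intergenic circRNAs (quartiles 212 and 1949 bp), against 480 bp for exonic (277 and 795 bp) and 310 bp for intronic circRNAs (249 and 390 bp). It ran from 113 to 45623 bp, against 95 to 18030 bp for exonic circRNAs. Both the short and the long spans were filled: 87 intergenic circRNAs (37.2%) spanned under 300 bp and 58 (24.8%) over 2000 bp, against 28.6% and 2.47% of the exonic ones. There were 8 over 10000 bp among the 234, against 2 among the 4418 exonic ones. The samples differed in this: the median span was 899 bp in the 189 of the separate samples and 168 bp in the 45 of the mixed sample, and the exonic circRNAs showed the same order with 566 and 179 bp. The part of the sequencing run in this was not tested.

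The 3 longest spans joined distant genes. Ath_circ_FC3848 (chr5:23497275-23542897, minus strand, 30 reads) ran over 45623 bp from the gene SVL4 to SVL5, which encode SHAVEN3-like proteins of the cell surface, and held 12 whole genes. Ath_circ_FC2483 (chr3:23298981-23327437, plus strand, 4 reads) spanned 28457 bp between AT3G63052 and CSP41A, which encodes an RNA-binding protein of the chloroplast, and lay opposite to both genes. Ath_circ_FC2235 (chr3:15779174-15800363, minus strand, 18 reads) spanned 21190 bp between AT3G43980 and AT3G44010, both of the ribosomal protein S14p/S29e family. The 3 shortest were Ath_circ_FC5644 with 113 bp and 2 reads, Ath_circ_FC4885 with 126 bp and 10 reads, and Ath_circ_FC5283 with 129 bp and 4 reads. All 3 were in the mixed sample. The shorter 2 lay in the locus of the response regulator gene RR3 described below.

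By strand, 126 intergenic circRNAs were on the plus strand (53.8%) and 108 on the minus strand, against 50.1% on the plus strand for exonic and 50.2% for intronic circRNAs. The minus strand held 8031 reads and the plus strand 1810, but without the RBCS circRNAs the minus strand held 1507.

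Every one of the 234 had AG before its acceptor end and GT after its donor end on the listed strand, and so had all 4418 exonic and 207 intronic circRNAs. This is what the junction caller demands, and it shows that the listed positions match the reference used here base for base. A start counted from 1 instead of 0 left none of the intergenic circRNAs with both ends on exon boundaries.

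Although labelled intergenic, 219 of the 234 (93.6%) overlapped a gene of the RefSeq annotation of TAIR10.1, and 15 overlapped none. Of the exonic circRNAs, 4417 of 4418 overlapped one. A gene on the same strand was overlapped by 177 (75.6%), and genes on the other strand only by 42 (17.9%), against 87.2% and 12.8% of the exonic ones. A protein-coding gene was overlapped by 156, and 63 (26.9%) overlapped non-coding RNA genes or pseudogenes alone, against 60 exonic circRNAs (1.36%). In 122 of the 234 (52.1%) the span held no annotated coding base, against 2.76% of exonic and 86.5% of intronic circRNAs. The label is therefore read here only as the authors' class, and not as a position between genes.

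Within the deposited list, the class itself was used differently for circRNAs of the separate samples and for those also in the table of the mixed sample. Among nuclear circRNAs of the separate samples, 51 overlapped only non-coding RNA genes or pseudogenes, and all 51 were labelled intergenic, none of the 3502 exonic ones being of this kind. In the mixed sample there were 12 such intergenic circRNAs beside 60 such exonic ones. Likewise, all 47 nuclear circRNAs of the separate samples that joined 2 genes were labelled intergenic, whereas in the mixed sample 1 of 21 was. The annotation and its release behind each label were not tested.

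The ends of 135 intergenic circRNAs lay in 1 gene, those of 48 (20.5%) in different genes, 32 had 1 end in a gene, and 19 had none. Of the exonic circRNAs, 99.1% had both ends in 1 gene and 20 (0.453%), all in the mixed sample, in different genes. The 48 that joined 2 genes held 7773 reads, and 1249 without RBCS, which was 37.7% of the reads of the 231. Their median span was 3655 bp, against 277 bp for the 135 within 1 gene. Both ends fell exactly on annotated exon boundaries in 57 of the 234 (24.4%), and 39 of these 57 joined different genes. This compares with 65.7% of exonic and 2.9% of intronic circRNAs.

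**Figure D2:**
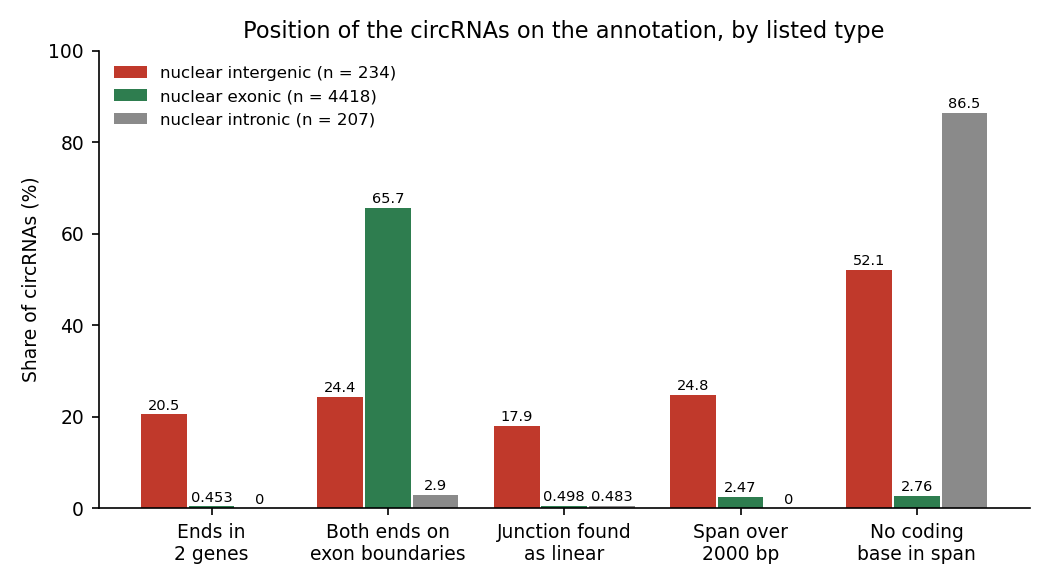
Share (%) of nuclear intergenic, exonic and intronic circRNAs whose ends lay in 2 genes, whose ends were both on exon boundaries, whose 60-base junction occurred as linear sequence, that spanned over 2000 bp, and that held no coding base, with 1 bar for each listed type. Intergenic circRNAs had 20.5% with ends in 2 genes, against 0.453% of the exonic ones, and 17.9% with a linear match, against 0.498%. In the separate samples every circRNA that joined 2 genes was labelled intergenic, so these contrasts depend on the labelling.

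Of the 48 that joined 2 genes, 32 joined tandem copies, taken as genes on 1 strand, no more than 5 annotated genes apart, whose longest transcripts matched over at least 50% of the shorter at 70% identity or more. The identity of these transcripts was 76.8% to 95.4%, with a median of 87.7%. In 2 more, Ath_circ_FC3848 and Ath_circ_FC2235 above, the transcripts were as similar but the genes lay farther apart. The 34 together covered 30 pairs of genes, and in all 34 the 60-base junction occurred with no more than 3 differing bases in an annotated linear transcript, in 15 of them with none. For 32 of the 34 this match was to the transcript itself, and for 2, whose genes both run the other way, it was to the reverse complement. In 23 of the 34 the donor was the end of an exon of 1 copy and the acceptor was the start of the next exon, by number, of the other copy. All 34 were from the separate samples, in which every circRNA that joined 2 genes was labelled intergenic. Their reads had a median of 9.5, against 6 for all intergenic circRNAs.

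The RBCS genes gave the largest values. RBCS3B (AT5G38410), RBCS2B (AT5G38420) and RBCS1B (AT5G38430) lie in this order on the minus strand of chromosome 5 between 15376988 and 15385320, with other annotated genes between them. Ath_circ_FC3604 (chr5:15378136-15381717, 2755 reads) joined the end of exon 1 of RBCS3B to the start of exon 2 of RBCS2B. Ath_circ_FC3605 (chr5:15378136-15384895, 1689 reads) joined the same end of exon 1 to the start of exon 2 of RBCS1B. Ath_circ_FC3603 (chr5:15377911-15381442, 2080 reads) joined the end of exon 2 of RBCS3B to the start of exon 3 of RBCS2B. The printed junctions of Ath_circ_FC3604 and Ath_circ_FC3605 were identical in all 60 bases. The 2 acceptor exons, each 135 bases long, were the same in their first 58 bases and at 132 of 135 positions, so their 4444 reads could be shared out between the 2 circles only by reads reaching past those 58 bases. This was the only identical pair among the 234, and there was 1 further pair among the exonic circRNAs, Ath_circ_FC5774 within RBCS2B and Ath_circ_FC5775 between RBCS2B and RBCS1B, with 2 reads each.

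Set against the linear transcript of RBCS3B, the junction of Ath_circ_FC3604 and Ath_circ_FC3605 differed at 1 of 60 bases, C45T (the junction has C at position 45, counted from 1 at its 5′ end, and the transcript has T). The junction of Ath_circ_FC3603 did not differ from that transcript at any base. Exonic circRNAs of the same genes were few: 4 circRNAs with 12 reads overlapped RBCS2B, 1 with 2 reads RBCS1B, and none RBCS3B. RBCS1A (AT1G67090), the copy on chromosome 1, had 3 exonic circRNAs with 12 reads and no intergenic one. In the light-harvesting genes LHCB1 and LHCB2, some of whose copies also lie close together, no intergenic circRNA overlapped any of the 7 genes looked at. Unlike the RBCS genes of chromosome 5, neighbouring copies were not all on 1 strand. Among the LHCB1 genes, CAB1 runs opposite to CAB2 and CAB3, and LHB1B1 opposite to LHB1B2.

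**Figure D3:**
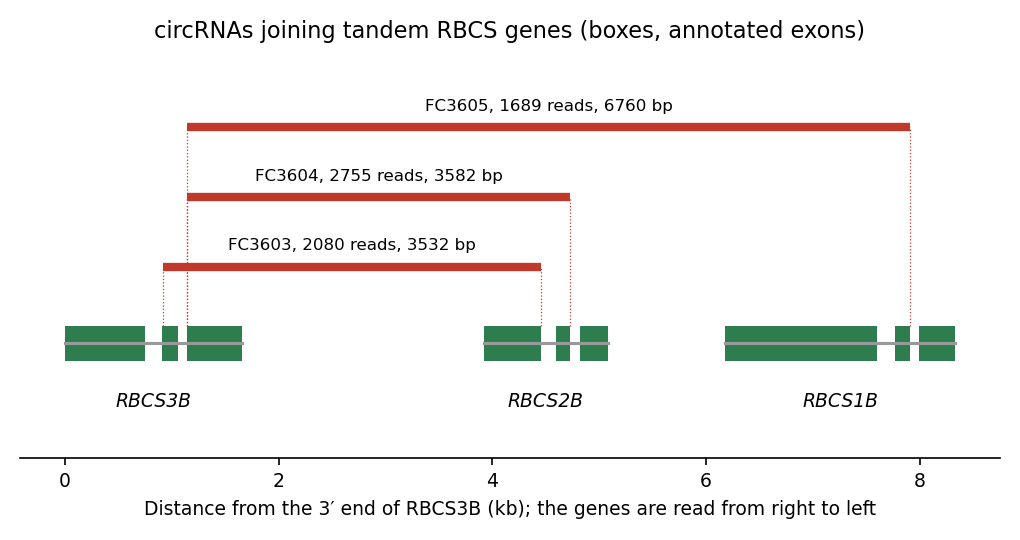
The 3 circRNAs that join RBCS genes (red bars, with their reads and span in bp) above the annotated exons (green boxes) of RBCS3B, RBCS2B and RBCS1B, against the distance in kb from the 3′ end of RBCS3B. Dotted lines drop from each end to an exon boundary, and Ath_circ_FC3604 and Ath_circ_FC3605 share the donor in RBCS3B.

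The next pairs by reads were genes of the cytoskeleton, of protein folding and turnover, and of the cold response. Ath_circ_FC3912 (chr5:25182813-25185254, plus strand, 195 reads) joined exon 2 of TUB3 to exon 3 of TUB2, the genes of beta-tubulin chains 3 and 2, and its junction was that of the TUB2 transcript in every base. Ath_circ_FC1093 (chr1:30059886-30064646, minus strand, 144 reads) joined exon 6 of Hsp70-15 to exon 7 of HSP91, 2 adjacent genes of the Hsp70 chaperone family with 95.4% identity, and differed from HSP91 at A24G. Ath_circ_FC3325 (chr5:5210223-5212022, plus strand, 85 reads) joined exon 1 of KIN2 to exon 2 of KIN1, genes of small proteins induced by cold, and matched the KIN2 transcript in every base. Ath_circ_FC0773 (chr1:20066441-20074643, minus strand, 84 reads) joined RPT1A, an ATPase of the 26S proteasome, to AT1G53780, annotated as an ATPase of the same complex, and matched AT1G53780 in every base. Within the 60 bases searched, these 4 junctions differed from exon joints of linear transcripts at 1 base or none.

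The remaining pairs had 47 reads or fewer. NIT3 to NIT1, nitrilases that can make auxin from its nitrile, had 47 reads. CDC20.2 to CDC20.1, activators of the anaphase-promoting complex, had 30 reads. AT1G29830 to AT1G29820, magnesium transporters of the CorA type, also had 30 reads. Small numbers were found for AOC2 to AOC1, allene oxide cyclases of jasmonate synthesis (9 reads), FBA5 to FBA7, aldolases of glycolysis (8 reads), HDA05 to HDA18, histone deacetylases (5 reads), and RAN2 to RAN-1, GTPases of nuclear transport (2 reads). For 4 pairs the list held more than 1 junction: RBCS3B and RBCS2B, PRXCB and PRXCA (peroxidases, 4 and 3 reads), AT4G36195 and AT4G36190 (13 and 2 reads), and AT5G18640 and AT5G18630 (16 and 2 reads). The 2 on the opposite strand to both of their genes were AT1G14130 to AT1G14120 (8 reads) and BXL3 to AT5G09700 (9 reads).

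**Figure D4:**
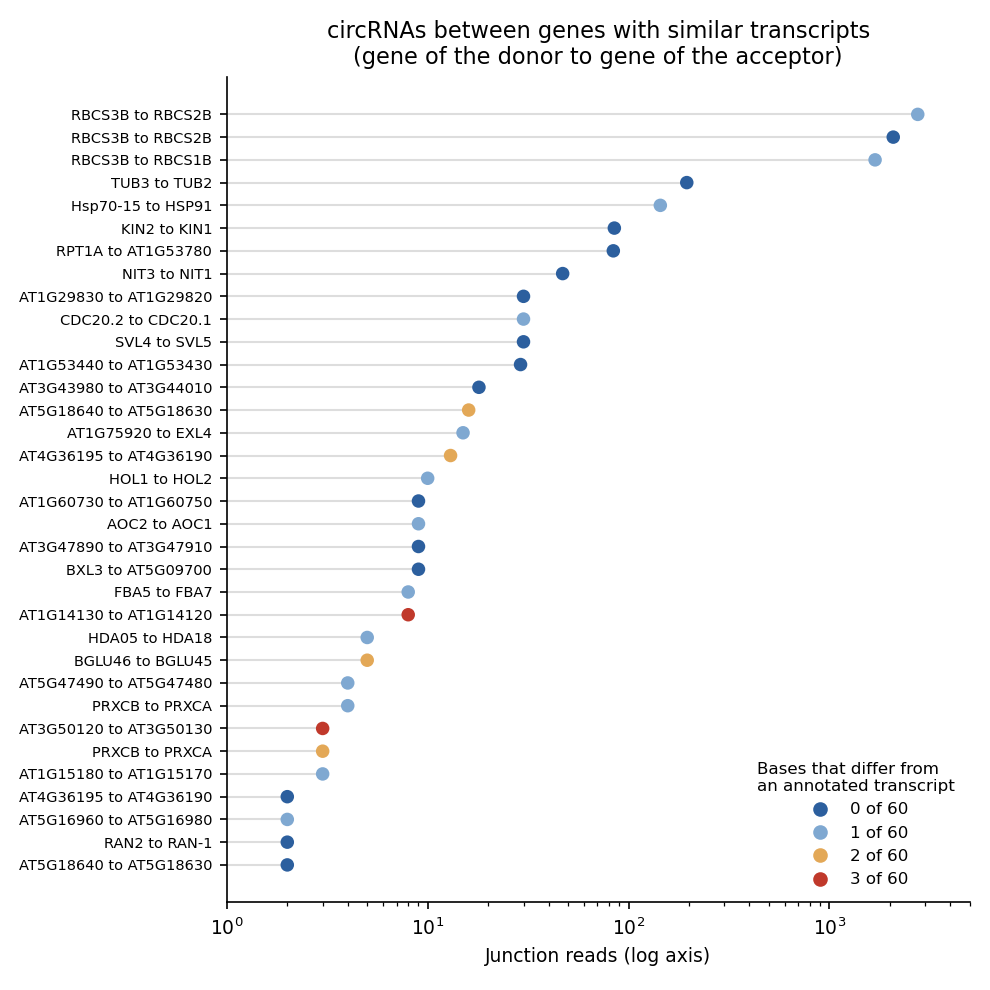
Junction reads (log axis) of the 34 intergenic circRNAs that join genes with similar transcripts, 1 row for each circRNA, named by the gene of the donor and the gene of the acceptor, coloured by how many of the 60 junction bases differ from an annotated transcript. All 34 differ at 0 to 3 bases, and reads run from 2 to 2755.

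A linear match of the junction was found for 42 of the 234 (17.9%), against 22 of the 4418 exonic (0.498%) and 1 of the 207 intronic circRNAs. These 42 held 7486 reads, and 962 of the 3317 reads (29%) without RBCS. The 192 without a linear match held 2355 reads, with a median of 5 reads and a median span of 396.5 bp. Besides the 34 above, 8 had a match. Among them, Ath_circ_FC1641 (40 reads) joined COR15B to COR15A, genes of cold-induced chloroplast proteins, and fell just short of the limit for similar transcripts at 49.4% of the shorter one. Ath_circ_FC3979 (3 reads) joined DAR3 to DAR7, at 49.1%. Ath_circ_FC2546 (37 reads) had its acceptor in CPK21, a calcium-dependent protein kinase, and its donor in no gene, and matched the CPK21 transcript in every base. It held the whole gene CPK22, on the same strand, and its donor lay beyond the annotated 3′ end of CPK22.

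The 14 that joined genes without such similarity held 416 reads. Ath_circ_FC2192 (chr3:10035109-10036431, minus strand, 187 reads) ran from AT3G27185, annotated as cyclin B1, into the neighbouring non-coding RNA gene AT3G05195, with neither end on an exon boundary and no linear match. Its 60-base junction differed at 1 base from that of another intergenic circRNA, Ath_circ_FC0627 (4 reads), within the cyclin gene CYCB1;5 on chromosome 1. How the reads divide between these similar loci was not tested. Ath_circ_FC0604 (chr1:11778554-11780741, plus strand, 87 reads) and Ath_circ_FC0603 (45 reads) shared their acceptor, opposite to the non-coding RNA gene AT1G06577, and had different donors, that of Ath_circ_FC0604 on an exon boundary of AT1G32575. Ath_circ_FC1187 (chr2:4485020-4486252, plus strand, 167 reads), with 1 end in AT2G11270, a gene for a citrate synthase-like protein, also had no linear match. So 3 of the 10 circRNAs with the most reads had a junction not found as linear sequence, and the other 7 joined tandem copies.

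Whole genes lay inside 44 of the 234 (18.8%), against 33 exonic circRNAs (0.747%). A whole miRNA gene lay inside 3. Ath_circ_FC0322 (chr1:4181853-4182900, minus strand, 2 reads) had its donor in AT1G12290, a disease resistance gene of the CC-NBS-LRR class, and held MIR472, whose miRNA is known to target genes of that class. Ath_circ_FC2488 (18 reads) and Ath_circ_FC2489 (4 reads) held MIR167b, whose miRNA targets auxin response factors. Of the 32 that joined tandem copies, 16 held a whole gene and 16 joined copies with none between them.

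Along the chromosomes, the intergenic circRNAs numbered 64, 43, 45, 31 and 51 on chromosomes 1 to 5, or 1.67 to 2.18 per Mb, and made up 4.42% to 5.32% of the circRNAs on each. Their share of the reads was 8.24% to 9.67% on chromosomes 1 to 4 and 46.4% on chromosome 5, which was 7.01% without RBCS. Overlapping circRNAs were grouped into 150 loci, of which 118 held 1 circRNA, 18 held 2, 10 held 3 and 4 held more. Of 121 windows of 1 Mb, 38 held none, 37 held 1, and the fullest held 24. The variance of the number per window was 5.43 times its mean, and 10.8 times for all 4859 nuclear circRNAs. For clustered counts this ratio also rises with the mean, so the 2 values do not rank the unevenness of the 2 sets. With each intergenic locus counted 1 time the variance was 1.13 times the mean, so nearly all of the unevenness of the intergenic circRNAs lay within loci.

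The 2 densest loci, 301 and 287 bp long, held 41 of the 234 (17.5%) and 485 reads. At chr2:17224510-17224810 there were 22 circRNAs with 283 reads, 8 on the plus and 14 on the minus strand, 15 of them in the mixed sample. They lay in the last exon of RR3 (AT2G41310, plus strand), a type-A response regulator of cytokinin signalling, behind its coding part, and opposite to it in the non-coding RNA gene AT2G09250. Spans were 113 to 294 bp, and 7 starts and 13 ends were combined. The most reads were 62, 59 and 54, and all other circRNAs of the locus had 14 or fewer. No circRNA of another type overlapped this locus.

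At chr1:5297892-5298178 there were 19 circRNAs with 202 reads, 3 to 31 each, all from the separate samples, in the non-coding RNA genes AT1G15405 and AT1G05163 of the minus strand. On the plus strand, opposite to both genes, were 15 of the 19. The list also had 33 circRNAs labelled exonic for AT1G15405, all in the mixed sample and with 615 reads, and each of the 19 shared an end with at least 1 of them. The sequence of the locus is shown because its ends recur: on the plus strand of TAIR10.1, chr1:5297890-5298180, with the AG before each of the 7 starts and the GT after each of the 6 ends of the 15 plus-strand circRNAs in capitals.
AT1G15405 locus: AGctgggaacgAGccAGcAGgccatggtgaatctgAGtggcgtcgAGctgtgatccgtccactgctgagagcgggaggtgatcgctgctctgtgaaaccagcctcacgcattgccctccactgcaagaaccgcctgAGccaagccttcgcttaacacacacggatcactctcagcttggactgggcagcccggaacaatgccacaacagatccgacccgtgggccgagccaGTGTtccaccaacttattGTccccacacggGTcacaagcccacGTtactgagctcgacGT
The window held 20 AG and 14 GT in all, and the GT used lay in its last part. The last 30 bases of Ath_circ_FC0375 here and of Ath_circ_FC4942, on the minus strand of the RR3 locus, were the same at most positions. Those of Ath_circ_FC5316, at AT4G04595 on chromosome 4, were also the same as those of Ath_circ_FC0375 at most positions. The repeat of Ath_circ_FC3215, given below, held the reverse complement of part of the printed sequence with few differing bases. The 2 densest loci thus hold similar sequence, which other loci of intergenic circRNAs also held. Its part in their reads and shared ends was not tested.

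**Figure D5:**
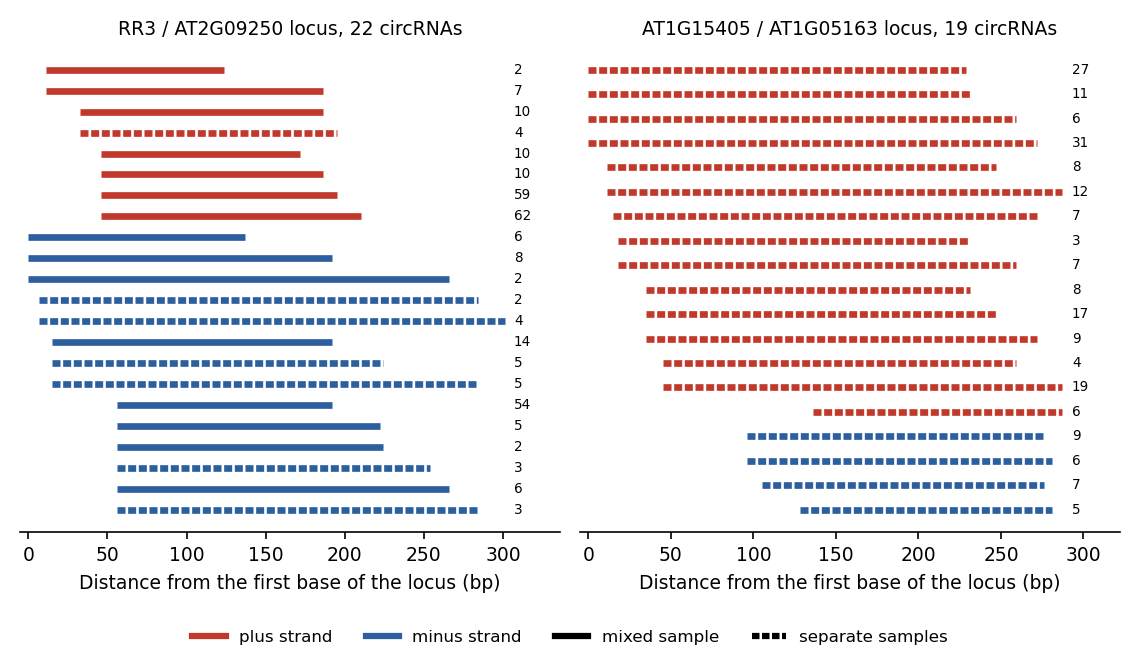
The circRNAs of the 2 densest loci as bars from first to last base, against the distance in bp from the first base of the locus, with the junction reads at the right, plus strand red and minus strand blue, solid for the mixed sample and broken for the separate samples. The RR3 locus holds 22 circRNAs of both kinds of sample and the AT1G15405 locus 19 of the separate samples alone.

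Of the other loci, chr1:12195268-12196544 in the non-coding RNA gene AT1G33615 held 5 circRNAs with 4, 5, 14, 51 and 4 reads, all on the minus strand. They shared 1 donor, on an exon boundary of that gene, and had 5 acceptors. In AT3G06365, annotated only as an uncharacterized RNA, 4 circRNAs of the mixed sample had 2 acceptors and 28, 10, 5 and 2 reads. The identity of this RNA was not tested. The RBCS locus was 1 of 10 loci with 3 circRNAs and had the most reads of these.

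An end shared with another intergenic circRNA, at the same base and on the same strand, was found for 90 of the 234 (38.5%), against 20.3% of exonic circRNAs with each other. The donor was shared by 66 and the acceptor by 55. All 41 circRNAs of the 2 densest loci shared an end, and 49 of the other 193 (25.4%) did. An end was shared with an exonic or intronic circRNA by 29, of which 10 lay outside these loci.

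The 15 circRNAs that overlapped no gene held 204 reads, and 12 of them were in the mixed sample. They lay 1 to 24366 bp from the nearest gene, with a median of 758 bp. Ath_circ_FC2562 (chr4:5059540-5060151, minus strand) had 82 reads, the most of these, lay 129 bp from a pseudogene and had no linear match. Its junction is shown as the most read one outside genes.
Ath_circ_FC2562 (no annotated gene): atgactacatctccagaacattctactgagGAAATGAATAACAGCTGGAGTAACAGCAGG
Ath_circ_FC1949 and Ath_circ_FC4778 had 37 reads each. The first had no linear match. The junction of Ath_circ_FC4778 matched an annotated transcript of AT4G05175, or its reverse complement, except at A3G.

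At these ends the genome often repeated itself. A direct repeat of 10 bases or more, in which the bases around the start recur around the end so that the junction could be placed at either copy, was found in 7 of the 15 and in 1 of the other 219, and in 34 of the 4418 exonic circRNAs (0.77%). The 3 longest repeats of circRNAs without a gene are shown, on the listed strand, because a junction inside them has no single position.
Ath_circ_FC4778 (chr3:13770736-13778807): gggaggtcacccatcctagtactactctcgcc
Ath_circ_FC5493 (chr5:7527593-7528279): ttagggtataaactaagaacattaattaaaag
Ath_circ_FC5790 (chr5:19884981-19885160): aggtaaactgagaaaagaa
The exception with genes was Ath_circ_FC3215 (9 reads), between BXL3 and AT5G09700, with a repeat of 82 bases. Without regard to genes, 7 of the 45 circRNAs of the mixed sample (15.6%) had such a repeat, against 22 of its 916 exonic ones (2.4%), and 1 of the 189 of the separate samples. The median repeat was 1.5 bases for intergenic and 2 bases for exonic circRNAs.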

How the data were processed

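The authors filtered the reads (NGS QC Toolkit), mapped them with TopHat2 and Bowtie2 2.0.5 to TAIR10, called back-spliced junctions with find_circ at a minimum of 2 unique reads and set each type by overlap with genes (bedtools). CASAVA 1.8 is also named in the submitters' notes. The deposited list gives a score, a whole number of junction reads headed as a mean, pooled over samples and not normalized. The deposited table of the mixed sample gives raw counts of back-spliced reads (8987 in all). Its scaled counts and miRNA column, and the authors' gene names, were not used.

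Listed starts count from 0 and are printed from 1. The members and lists were chosen with earlier results of these data known. Ends were set on the RefSeq annotation of TAIR10.1, whose sequence and names are used throughout and which is not the release the authors used. Junction sequences (30 bases from each end) were searched with blastn 2.17.0 without gaps in genome and transcripts, allowing 3 of 60 bases to differ. Transcript pairs were compared with blastn. Loci were groups of overlapping circRNAs on either strand. Procedures were tested on simulated data (Python 3.11.15, pandas 2.3.3). With 1 library for each condition and no value for each separate sample, no test was made. The exonic and intronic circRNAs of the same list are given as description. Named were the 10 with the most reads, the 3 longest, the 3 shortest, Ath_circ_FC0322, the 5 loci with the most circRNAs (ties broken by reads) and the genes joined as tandem copies. Others (the pairs just under the similarity limit, those with no gene, with repeats or with miRNA genes, Ath_circ_FC0603, Ath_circ_FC0627 and Ath_circ_FC2546) were chosen after their values were seen. So was Ath_circ_FC5316.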

Additional observations from a re-analysis of the deposited data

How the results depend on the processing

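No paired analysis was possible because each condition has 1 library and the list gives no value for each separate sample. For the same reason no separate library could be left out. Of 38 alternatives, 30 stayed within 1.5 times the reported value, or within its Wilson interval for the share on the plus strand. The other 8 were these. With at least 5 reads, 140 of the 234 circRNAs were kept. Their 9841 reads were 3317 without the 3 RBCS circRNAs and 457 in the mixed sample alone. The variance of the number per window was 1.13 times its mean with each locus counted 1 time, and 2.06 times without the 2 densest loci. Without those loci, 49 circRNAs shared an end. With starts counted from 1, 0 had both ends on exon boundaries. With no differing base allowed, 19 junctions were found as linear sequence. Leaving out the 2 densest loci was chosen after seeing the data. The depth of each separate library was not used here, most values rest on under 10 reads, and the number of genes overlapped holds for the RefSeq annotation alone.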
